A study of Mus musculus with 18 samples.

Results

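This account covers the effect of inducing LIP in mouse melanoma cells that had been under endoplasmic reticulum (ER) stress for 12 h. It compares the 3 arrays of cells given doxycycline and then tunicamycin for 12 h with the 3 arrays of cells given tunicamycin for 12 h and no doxycycline, which are 6 of the 18 arrays of the series. The cells of all 6 groups were B16 F10.9-4, a derivative of the B16 melanoma, and doxycycline was given before tunicamycin to overexpress LIP. The other 12 arrays came from 4 groups of 3: cells with both drugs collected 5 h after tunicamycin, cells with only tunicamycin at that time, and cells at 0 h that had doxycycline or vehicle. No vehicle array at 5 or 12 h was used here. Each group held 1 array from each of 3 independent experiments, so p-values measure the spread between these experiments. All 19938 genes with a probe set of a single symbol were compared, using the brightest probe set of each gene.

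LIP is the short isoform made from Cebpb messenger RNA. It keeps the DNA-binding and dimerisation part of the transcription factor C/EBPβ and lacks most of its activating part, so it can compete with the full-length isoforms and pair with other leucine zipper proteins. Tunicamycin blocks the first step of N-linked glycosylation, and the unfolded protein that builds up in the ER is sensed by 3 membrane proteins, IRE1, ATF6 and PERK. PERK slows translation and favours ATF4 protein, which switches on amino acid genes, ATF3 and CHOP (gene Ddit3), a partner of C/EBP proteins linked to cell death in prolonged stress. C/EBPβ and CHOP can both bind composite sites with ATF4.

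Several features of the design limit what the comparison can show. Doxycycline was the inducer in every LIP group, and no array of cells given doxycycline without the LIP construct was analysed here, so the drug's own effect and that of LIP cannot be told apart. Whether the line is 1 clone, and the promoter and species of the construct, are not given in the sources used here. Levels are log2 intensities that the authors summarised with RMA, differences are given on the log2 scale as doxycycline with tunicamycin minus tunicamycin alone with their standard error (SE), and adjusted p-values are limma's over all 19938 genes with a threshold of 0.05. The number of arrays limits the precision. Arrays of 1 group correlated with r between 0.997 and 0.999 over genes, and 0 pairs of arrays were identical.

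The induced gene was checked first. Cebpb read 11.51, 11.47 and 11.58 in cells given doxycycline and tunicamycin for 12 h, against 10.38, 10.23 and 10.28 in cells given tunicamycin alone. The groups did not overlap, and the difference was 1.22 ± 0.07 (SE, 2.34-fold, adjusted p = 8.27e-10). LIP and the longer isoforms share this probe set's target, the Cebpb gene, and were not measured apart. At 0 h the mean was 11.18 with doxycycline and 9.33 with vehicle, so the Cebpb difference at 12 h was smaller than at 0 h, by -0.62 (adjusted p of the difference between effects = 0.0025). Of the other 5 C/EBP family genes measured, Cebpg and Ddit3 were lower and Cebpa, Cebpd and Cebpe did not pass the test.

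Of 10 melanocyte-lineage markers, 9 were above 6.07 in both groups, which was the 95th percentile of 1203 olfactory and vomeronasal receptor genes used as a stand-in for silent genes; Ednrb was below it in both. The summed level of the list, as its mean per array, was 10.53 to 10.56 with doxycycline and tunicamycin and 11.02 to 11.07 with tunicamycin alone, and 8 of the 10 markers were lower with doxycycline. For macrophages 1 of 10 markers (Cd68) was above 6.07 in both groups, with list means of 5.52 to 5.62 against 5.50 to 5.60, and Ptprc, Adgre1 and Csf1r were below it; Lyz2, also below it, was the 1 marker that was higher with doxycycline. For keratinocytes 3 of 10 (Krt15, Trp63 and Cdh1) were above it in both groups, with list means of 5.71 to 5.80 against 5.76 to 5.82, and Krt5 and Krt14 were below it.

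At 12 h of tunicamycin 2936 genes (14.7%) differed between cells with and without doxycycline. Of these 1386 were higher (6.95% of all genes) and 1550 lower (7.77%) in the doxycycline group. Most differences were small: the median size among the genes past the threshold was 0.29, and 60 genes (0.301%) differed at least 2-fold, 30 higher (0.15%) and 30 lower (0.15%). Setting the array medians equal turned the balance, to 1575 higher and 1162 lower, while the median difference of all genes moved only from -0.0032 to 0.02. Of the genes called, 1382 of the higher and 1544 of the lower ones differed the same way in all 3 experiments. The doxycycline and no-doxycycline arrays did not overlap for 1352 and 1504 of them. Over all genes the groups were apart with doxycycline higher for 12.8% and with doxycycline lower for 13.4%. The sign and overlap counts come from the arrays that made the calls, so they are not separate support for the calls. Leaving out experiment 3 or experiment 1 cut the number of calls most, to 1454 and 1615, while 2546 remained without experiment 2.

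**Figure D1:**
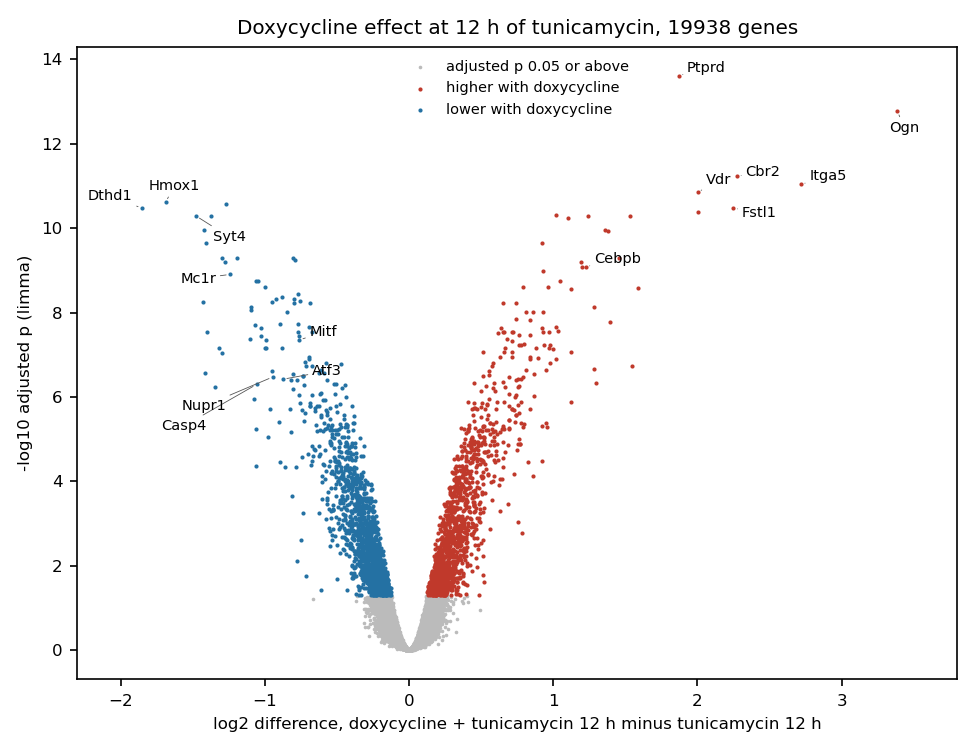
Difference of each of 19938 genes at 12 h of tunicamycin (x axis, log2, doxycycline with tunicamycin minus tunicamycin alone) against the negative log10 of limma's adjusted p (y axis). Red points are the 1386 genes higher and blue points the 1550 genes lower with doxycycline, grey points did not pass the threshold; Ogn lies farthest to the right and Dthd1 farthest to the left.

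The largest fitted rise was in Ogn, which encodes osteoglycin, a small leucine-rich proteoglycan of the extracellular matrix. Ogn read 8.75, 8.52 and 8.88 with doxycycline and tunicamycin, against 5.23, 5.39 and 5.37 with tunicamycin alone, where it lay below the receptor genes' 95th percentile. The fitted difference was 3.39 ± 0.10 (adjusted p = 1.69e-13), and against that percentile, taken as the lowest measurable level, Ogn was at least 6.27-fold higher with doxycycline, so its place ahead of Itga5 rests on values in that range. Itga5, the α5 chain of the fibronectin receptor, followed with 8.996, 9.08 and 9.08 with doxycycline and tunicamycin, against 5.998, 6.47 and 6.54 with tunicamycin alone (2.72 ± 0.11, 6.58-fold, adjusted p = 9.2e-12). The array of experiment 1 was the lowest of the tunicamycin group for Itga5, and the groups stayed more than 2 log2 units apart.

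The genes that followed had varied roles. Cbr2, a carbonyl reductase, read 10.89, 10.92 and 10.91 with doxycycline and tunicamycin and 8.51, 8.74 and 8.64 with tunicamycin alone (2.27 ± 0.09, adjusted p = 5.84e-12). Fstl1, a secreted follistatin-like glycoprotein, read 9.94, 10.27 and 10.06 against 7.69, 8.08 and 7.74 with tunicamycin alone (2.25 ± 0.10). Vdr, the nuclear receptor for vitamin D, read 8.86, 9.13 and 9.25 against 7.10, 7.09 and 7.06 (2.00 ± 0.08, 4.00-fold). None of these groups overlapped. The other rises among the 15 largest were those of the junctional adhesion molecule Jam2 (2.01), the receptor phosphatase Ptprd (1.87), the smooth muscle actin Actg2 (1.59), the complement protease C1s1 (1.55), the leukaemia inhibitory factor receptor Lifr (1.53), the small GTPase Rasl11a (1.46), the natriuretic peptide receptor Npr3 (1.39), the matricellular protein thrombospondin 1 (Thbs1, 1.38), the transcription factor Gata3 (1.36) and Spata9 (1.29). Their adjusted p-values lay between 2.45e-14 for Ptprd and 4.7e-07 for Spata9. C1s1 and Spata9 lay below the receptor genes' 95th percentile on every array of tunicamycin alone, so they were at least 1.62-fold and at least 1.70-fold higher with doxycycline and have no exact place in the order. At 0 h all of the 15 but Ogn and Gata3 were already higher with doxycycline past the threshold, among them Cbr2 (1.74) and Fstl1 (1.51). The effects at 12 and 0 h did not differ past the threshold for Actg2, C1s1 and Spata9.

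The largest fitted fall was in Dthd1, named for its death domain. It read 5.63, 5.26 and 5.38 with doxycycline and tunicamycin, below the receptor genes' 95th percentile, against 7.24, 7.34 and 7.26 with tunicamycin alone (-1.85 ± 0.08, adjusted p = 3.36e-11). Against that percentile it was at least 2.31-fold lower with doxycycline, so its place ahead of Hmox1 rests on values in that range. Hmox1, haem oxygenase 1, the stress-inducible enzyme that breaks down haem, read 8.68, 9.02 and 8.79 with doxycycline and tunicamycin, against 10.48, 10.57 and 10.51 with tunicamycin alone (-1.69 ± 0.07, 3.22-fold lower, adjusted p = 2.44e-11). Syt4, a synaptotagmin of vesicle traffic, read 9.31, 9.31 and 9.36 against 10.76, 10.79 and 10.85 (-1.48 ± 0.07). The groups were apart by more than 1 log2 unit for all 3 genes.

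The other large falls were in genes of varied function. The secreted phospholipase Pla2g2e (-1.42), the prostaglandin D synthase Hpgds (-1.42) and the prostacyclin receptor Ptgir (-1.37) were lower with doxycycline. Aldh1l2, a mitochondrial folate enzyme, read 10.25, 10.35 and 10.44 with doxycycline and tunicamycin, against 11.78, 11.71 and 11.77 with tunicamycin alone (-1.41 ± 0.07). Slc24a4, an ion exchanger associated with pigmentation (-1.40), the tetraspanin Tspan10 (-1.32) and the zinc finger factor Bnc2 (-1.30), associated with pigment traits in humans, also fell. The remaining genes of the 15 were the acetyltransferase-family gene Nat8f5 (-1.43), the clock-associated repressor Bhlhe41 (-1.34), the anoctamin Ano3 (-1.30), the planar polarity gene Prickle1 (-1.28) and Insc (-1.27), whose fly counterpart orients cell division. Nat8f5 lay below the percentile on every array with doxycycline and was at least 1.78-fold lower there. At 0 h all of the 15 falls but Dthd1, Hmox1 and Nat8f5 were already lower with doxycycline past the threshold, among them Syt4 (-1.29) and Hpgds (-1.19). The effects at 12 and 0 h did not differ past the threshold for Syt4, Hpgds, Bhlhe41, Tspan10, Bnc2 and Prickle1. The 15 rises and 15 falls were chosen to have 1 direction in the 3 experiments.

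**Figure D2:**
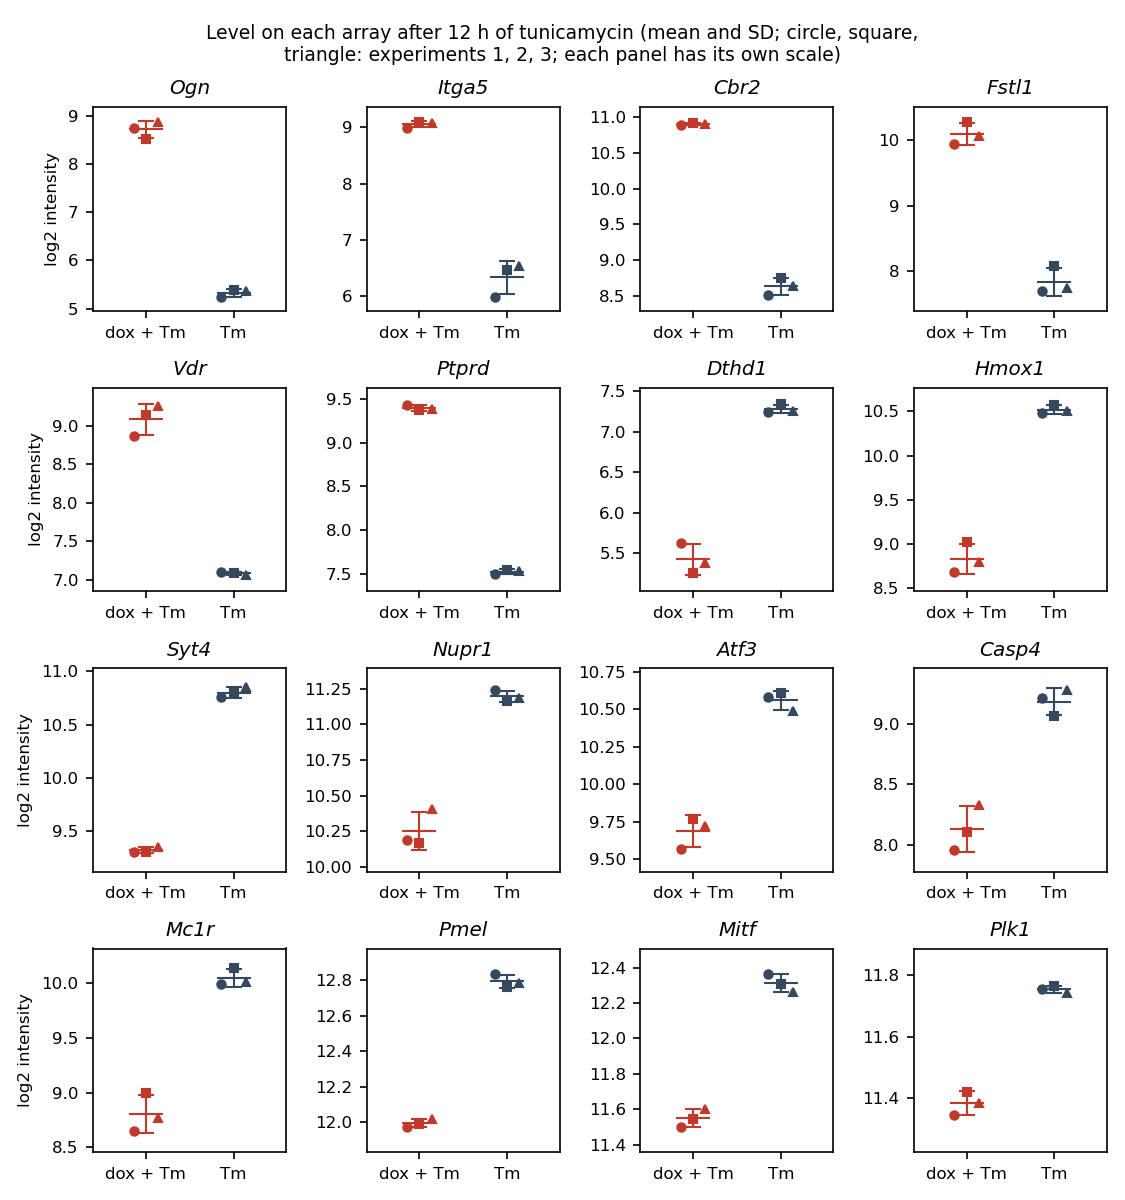
Log2 intensity (y axis) of 16 genes on the 3 arrays with doxycycline and tunicamycin for 12 h (red, left) and the 3 arrays with tunicamycin for 12 h (dark, right); horizontal marks are means, bars are SD and symbols give the experiment. The groups are apart in all 16 panels, from about 3 log2 units in Ogn to 0.37 in Plk1.

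The doxycycline effect at 12 h was then set against the effect at 5 h and at 0 h, which were measured on other arrays. At 5 h 2386 genes passed the threshold (1348 higher, 6.76%, and 1038 lower, 5.21%) and at 0 h 2135 (974 higher, 4.89%, and 1161 lower, 5.82%). Of the 1386 genes higher at 12 h, 860 were also higher at 5 h (62.0% of the 12 h genes and 63.8% of the 5 h genes) and 604 at 0 h (43.6% and 62.0%). Of the 1550 genes lower at 12 h, 730 were also lower at 5 h (47.1% and 70.3%) and 596 at 0 h (38.5% and 51.3%). Past the threshold at 12 h and at neither earlier time were 460 higher and 666 lower genes, but the effect at 12 h differed from both earlier effects by the tests of the differences for only 16 and 36 of these.

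In all 367 genes (1.84%) had an effect at 12 h that differed from that at 0 h, 198 of them in the positive direction (0.993%) and 169 in the negative one (0.848%). Between 12 and 5 h 140 effects (0.702%) differed, 42 in the positive direction (0.211%) and 98 in the negative one (0.492%). The count against 0 h was 47, 380 and 39 without experiments 1, 2 and 3. Of the 380, 218 were also called the same way in the main fit. The count was 224 without the experiment 3 array of doxycycline with tunicamycin for 12 h. Without the experiment 3 array of tunicamycin for 12 h the count was 239. The count against 5 h was 32, 91 and 28 without experiments 1, 2 and 3.

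Ogn gave the largest fitted change in effect. Its doxycycline group averaged 5.10, 5.38 and 8.72 at 0, 5 and 12 h and the group without doxycycline 4.94, 4.82 and 5.33, and the fitted effects at 12 and 0 h differed by 3.23 (adjusted p = 3.45e-10) and those at 12 and 5 h by 2.83. All of these Ogn levels but that at 12 h with doxycycline were below the receptor genes' 95th percentile, so the sizes of these differences are not exact. Itga5 averaged 6.92, 8.19 and 9.05 with doxycycline and 6.39, 6.94 and 6.34 without it, a gain in effect of 2.19 over 0 h. Gata3, a transcription factor of many developing tissues, averaged 6.42, 6.85 and 8.31 with doxycycline and 6.26, 6.44 and 6.95 without it (gain of 1.20). Vdr (1.25), Ptprd (1.11) and the glutathione transferase Gsta3 (0.91) completed the 6 largest positive differences against 0 h, and sulfite oxidase (Suox, 0.96) was among the 4 largest against 5 h.

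The largest fitted negative difference was that of Dthd1. It averaged 5.08, 4.98 and 5.43 with doxycycline at 0, 5 and 12 h and 4.99, 5.03 and 7.28 without it, which gave a fitted difference between the effects at 12 and 0 h of -1.94 (adjusted p = 2.6e-08); all but the 12 h level without doxycycline were below the percentile, so this size is not exact either. Hmox1 averaged 9.31, 9.16 and 8.83 with doxycycline and 9.46, 9.42 and 10.52 without it (-1.53). Casp4, the inflammatory caspase also known as caspase-11, averaged 6.94, 6.84 and 8.13 with doxycycline and 6.74, 6.79 and 9.19 without it (-1.26), so it was above its 0 h level in both groups at 12 h. The N-acetyltransferases Nat8f5 (-1.41) and Nat8 (-1.19) and the siderophore-binding lipocalin Lcn2 (-1.10) were the other large negative differences; the Nat8f5 and Lcn2 groups at 0 and 5 h were all below the percentile. Lcn2 averaged 6.06 with doxycycline and tunicamycin for 12 h and 7.13 with tunicamycin alone, while at 0 h it averaged 5.85 with doxycycline and 5.82 with vehicle.

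**Figure D3:**
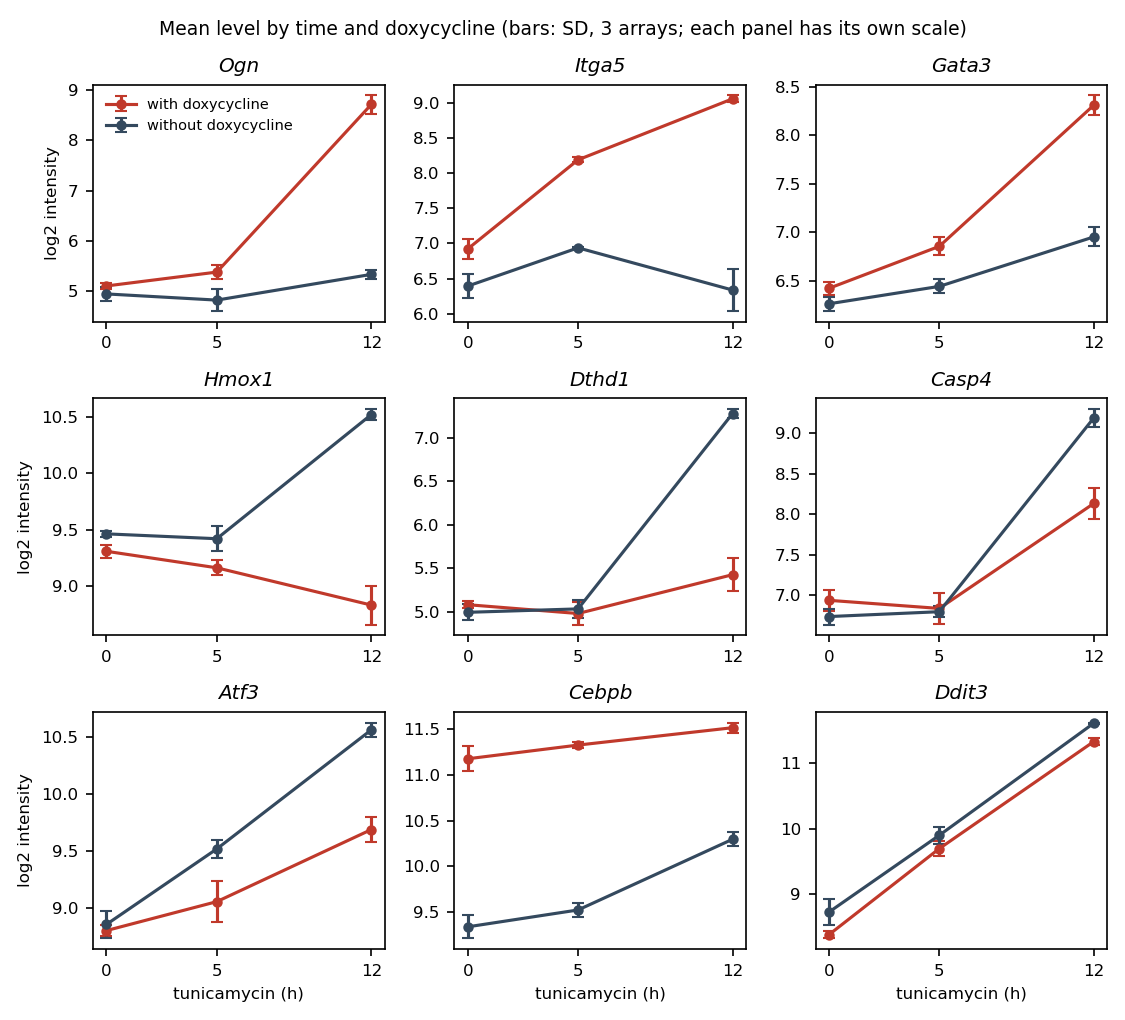
Mean log2 intensity (y axis) of 9 genes after 0, 5 and 12 h of tunicamycin (x axis), with doxycycline in red and without it in dark; bars are the SD of 3 arrays. Ogn, Itga5 and Gata3 separate upwards with doxycycline by 12 h, Dthd1, Hmox1 and Casp4 separate upwards without it, and Ddit3 climbs on both lines.

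Targets of the PERK, ATF4 and CHOP branch were in part lower with doxycycline. Of 24 measured, 10 fell and 2 rose at 12 h, with a median difference of -0.14 beside -0.0032 over all genes. Over all genes 7.77% fell and 6.95% rose. Nupr1, a small stress-induced chromatin protein, read 10.19, 10.16 and 10.41 with doxycycline and tunicamycin, against 11.24, 11.17 and 11.19 with tunicamycin alone (-0.94 ± 0.09, adjusted p = 3.34e-07). Atf3, a leucine zipper factor induced by ATF4, read 9.57, 9.77 and 9.72 against 10.59, 10.61 and 10.49 (-0.87 ± 0.08, adjusted p = 3.8e-07). Chac1, which degrades glutathione, read 10.95, 10.95 and 11.01 against 11.62, 11.59 and 11.54 (-0.61 ± 0.07). The groups did not overlap for these 3 genes. Cdsn (-0.57), the pseudokinase Trib3 (-0.41), Cebpg (-0.29) and Ddit3 also fell. Cdsn had the opposite sign earlier: it was higher with doxycycline at 0 h (0.20, limma's adjusted p = 0.0442) and at 5 h (0.40, adjusted p = 0.000156).

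The members of that list did not move as a block. CHOP itself was close between the groups: Ddit3 read 11.32, 11.38 and 11.28 with doxycycline and tunicamycin, against 11.60, 11.61 and 11.62 with tunicamycin alone (-0.28 ± 0.08, adjusted p = 0.0279), and that call was lost with array medians set equal and on leaving out any 1 of 5 single arrays of the 6. Atf4 read 10.92, 10.95 and 10.95 against 10.86, 10.88 and 10.81 with tunicamycin alone, a difference of 0.09 that did not pass the test (adjusted p = 0.453), although the arrays did not overlap. Atf5 (0.23) and Vegfa (0.27) were the 2 members that rose, and Asns, the ATF4 target that makes asparagine, differed by 0.02. At 0 h, before tunicamycin, 4 of the 24 were higher and 2 lower with doxycycline, beside 4.89% and 5.82% of all genes. For 5 the effect at 12 h was below that at 0 h, beside 0.848% of all genes. Rising members numbered 0 without experiment 1, 1 without experiment 2 and 1 without experiment 3. The number of falling members was 6 without experiment 1 and 7 without experiment 3, and Trib3 lost its call without experiment 1 (adjusted p = 0.135).

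ATF4 pairs with C/EBP proteins on composite elements, and the start windows of these genes were read for one. The letters TGATGNAA were searched on both strands of the RefSeq start windows of 300 bases (GRCm38.p6, 250 before and 50 after each start). They occur in 7 of the 20 members of the PERK list that have a window (35.0%) and in 3.62% of all 15614 genes with one. The stretch before the start is shown for the 3 members with the largest falls that hold a match, with the match in capitals; none of the sequences printed here holds another of the 5 motifs searched.
Nupr1: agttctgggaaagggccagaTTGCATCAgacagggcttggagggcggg
Atf3: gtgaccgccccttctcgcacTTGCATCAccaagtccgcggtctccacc
Chac1: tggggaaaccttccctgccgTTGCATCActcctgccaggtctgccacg
These lie at chr7:126625553-126625600 (minus strand), chr1:191183416-191183463 (minus strand) and chr2:119351029-119351076 (plus strand). Over all genes the same letters were no more frequent in the 12 h calls, at 3.05% of the 1148 higher genes with a window and 3.59% of the 1255 lower ones. The C/EBP palindrome TTGCGCAA was in 40 of the 15614 windows, 1 of the 1148 higher and 10 of the 1255 lower genes.

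Of 22 amino acid genes 9 fell and 2 rose at 12 h (median -0.11), beside 7.77% of all genes falling and 6.95% rising. At 0 h 5 were lower and 4 higher with doxycycline (median -0.06), beside 5.82% and 4.89% of all genes. For 2 the effect at 12 h was below that at 0 h, beside 0.848% of all genes. Slc1a4, a neutral amino acid transporter, read 9.91, 10.01 and 10.16 with doxycycline and tunicamycin, against 10.98, 10.98 and 11.00 with tunicamycin alone (-0.96 ± 0.10, adjusted p = 1.91e-06), and its difference at 0 h was -0.95. The alanine and aspartate aminotransferases Gpt2 (-0.41) and Got1 (-0.39) fell, and Cth, which makes cysteine, rose by 0.43. Of 18 aminoacyl-tRNA synthetases 5 fell and 0 rose, among them Cars (-0.42), Vars (-0.37), Mars1 (-0.35) and Gars (-0.29). The falling amino acid genes numbered 5 without experiment 1 and 3 without experiment 3.

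The ER's folding machinery showed another pattern, beside 6.95% of all genes rising and 7.77% falling at 12 h, and 5.82% falling at 0 h. Hspa5, the main ER chaperone BiP, read 13.63, 13.50 and 13.62 with doxycycline and tunicamycin and 13.68, 13.53 and 13.57 with tunicamycin alone, so the groups overlapped and the difference of -0.01 ± 0.05 did not pass the test (adjusted p = 0.974). Of 30 ER chaperones and folding enzymes 7 rose and 0 fell at 12 h (median 0.05), whereas at 0 h 1 was higher and 16 were lower with doxycycline (median -0.19). For 10 of the 30 the effect at 12 h exceeded that at 0 h, beside 0.993% of all genes. Fkbp14, a prolyl isomerase of collagen folding, read 10.54, 10.76 and 10.74 against 10.12, 10.15 and 10.30 with tunicamycin alone (0.49 ± 0.07, adjusted p = 3.75e-05). Wfs1 (0.40), the BiP co-chaperone Dnajb9 (0.30) and Erp44 (0.26) also rose. Without experiment 1 the count of rising members was 3 and without experiment 3 it was 2, and Dnajb9 and Erp44 lost their calls in both cases.

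The stress sensors and the steps around folding were read against the 6.95% of all genes that rose and the 7.77% that fell. Of 15 sensors and factors 1 passed the test, Ern1, which encodes IRE1 (-0.33 ± 0.06), and Xbp1, the messenger that IRE1 splices, differed by -0.07 (adjusted p = 0.575). In ER-associated degradation 3 of 23 members rose and 1 fell: Selenos (0.30), Edem2 (0.26) and Erlec1 (0.24) were higher and Herpud1 was lower (-0.26). In N-glycosylation, the pathway that tunicamycin blocks, 3 of 30 rose and 3 fell, with the glucosyltransferase Alg6 at -0.62, Mpdu1 at -0.39, Alg5 at 0.36 and Uap1 at 0.29. Without experiment 3 there were 0 rises in the degradation list, and 1 rise and 1 fall in the glycosylation list; without experiment 1 the degradation list held 1 rise and 0 falls. Of 36 translocon and vesicle coat genes 7 rose and 0 fell, led by the retrieval receptor Kdelr3 (0.69), with Spcs1 (0.23), Arfgap3 (0.22) and Copb1 (0.18) behind it. That count was 1 without experiment 1, 4 without experiment 2, 1 without experiment 3 and 3 without the experiment 3 array of tunicamycin alone.

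**Figure D4:**
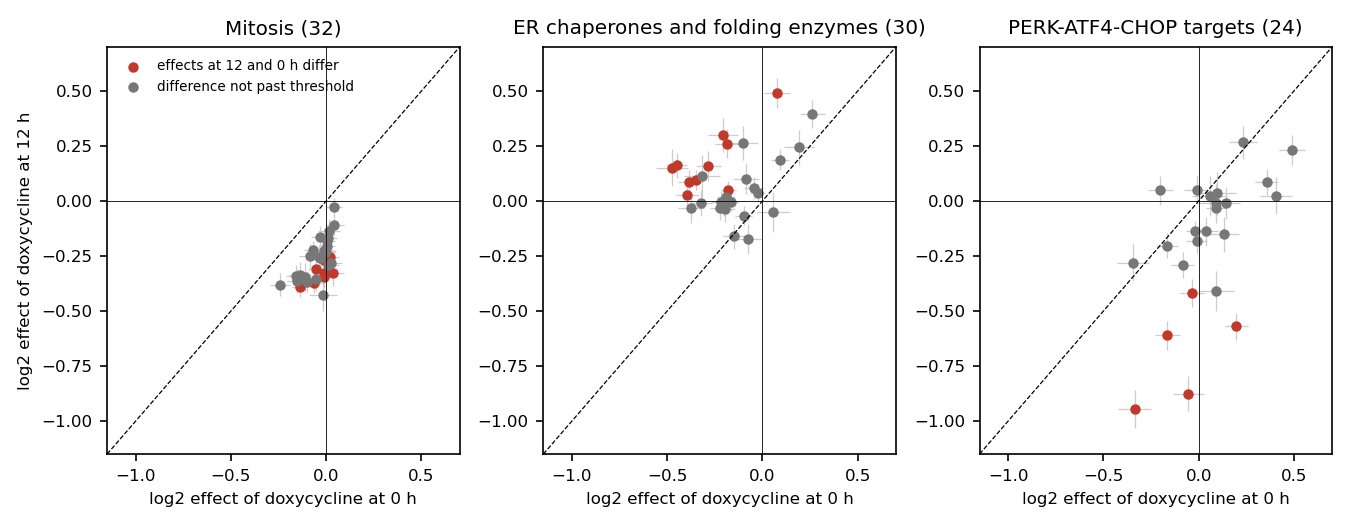
Doxycycline effect at 12 h of tunicamycin (y axis, log2) against that at 0 h (x axis, log2) for the members of 3 lists, with SE bars; the dashed line marks equal effects and red points are members whose effects differ by limma's adjusted p. Mitosis genes lie below the line near 0 on the x axis, ER chaperones lie mostly above the line, and 5 of the PERK branch targets lie well below it.

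Cell cycle genes were lower with doxycycline, beside 7.77% of all genes falling at 12 h and 5.82% at 0 h. Of 33 genes of the G1/S transition and DNA replication 25 fell and 0 rose at 12 h (median -0.27), and at 0 h 21 had fallen. Cdk2, the kinase that drives entry into S phase, read 11.06, 11.07 and 11.01 with doxycycline and tunicamycin, against 11.89, 11.81 and 11.85 with tunicamycin alone (-0.81 ± 0.04, adjusted p = 4.99e-10). The replicative helicase subunit Mcm3 fell by 0.60, the histone chaperone subunit Chaf1b by 0.55 and the licensing factor Cdt1 by 0.51. The E2F letters TTTGGCGC were in 6 of the 27 members with a window (22.2%) and in 0.833% of all genes with one.

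Mitosis genes were lower at 12 h as well. Of 32 measured 29 fell and 0 rose at 12 h (median -0.27), against 19 falls at 5 h and 1 at 0 h (median -0.01). Over all genes 7.77%, 5.21% and 5.82% fell at 12, 5 and 0 h. For 8 of the 32 the effect at 12 h was below that at 0 h, beside 0.848% of all genes. Plk1, the polo-like kinase of mitotic entry, read 11.34, 11.42 and 11.38 with doxycycline and tunicamycin, against 11.76, 11.77 and 11.74 with tunicamycin alone (-0.37 ± 0.05, adjusted p = 1.53e-05). The differences were small and even: the cyclin Ccnf fell by 0.43, the phosphatase Cdc25b by 0.39 and the checkpoint kinase Ttk by 0.38. In 29 of the 32 the arrays did not overlap, beside 13.4% of all genes with doxycycline lower. Leaving out an experiment left 22 to 24 falling members. In such bulk samples fewer dividing cells and less of these messengers per cell cannot be told apart.

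Many mitotic promoters carry a cell cycle homology region bound by the DREAM complex, with the core TTTGAA. Searched on both strands, these letters were in 21 of the 27 mitosis genes with a window (77.8%) and in 17.3% of all genes, and in 19.1% of the lower against 13.2% of the higher genes. They are shown for 3 members with a match before the start, of which Ccnf was named for its fall and Ccnb2 (-0.18) and Cdc20 (-0.33) were picked as mitotic regulators after their values were seen, with the matches in capitals.
Ccnf: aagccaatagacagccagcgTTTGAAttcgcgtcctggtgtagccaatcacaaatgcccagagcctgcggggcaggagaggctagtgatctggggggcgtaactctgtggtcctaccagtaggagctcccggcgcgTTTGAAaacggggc
Ccnb2: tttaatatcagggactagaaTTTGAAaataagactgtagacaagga
Cdc20: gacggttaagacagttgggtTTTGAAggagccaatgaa
They come from RefSeq GRCm38.p6 at chr17:24251410-24251559, chr9:70421696-70421741 and chr4:118437344-118437381, all on the minus strand.

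Pigment cell genes were lower with doxycycline at 12 h, beside 7.77% of all genes falling and 6.95% rising. Mitf, the master factor of melanocytes, read 11.50, 11.55 and 11.60 with doxycycline and tunicamycin, against 12.37, 12.31 and 12.26 with tunicamycin alone (-0.76 ± 0.06, adjusted p = 4.48e-08). Of 17 melanocyte factors and receptors 10 fell and 0 rose (median -0.23), including Cdk2, which the list holds as a MITF target. Mc1r, the melanocortin receptor, read 8.65, 8.99 and 8.77 against 9.99, 10.14 and 10.00 with tunicamycin alone (-1.24 ± 0.07, adjusted p = 1.24e-09). Erbb3, a neuregulin receptor of the neural crest lineage, fell by 1.06 and Gpr143, a receptor of melanosomes, by 0.90. At 0 h 7 of the 17 were already lower and 1 higher with doxycycline, beside 5.82% and 4.89% of all genes. The difference at 0 h was -0.60 for Mitf and -0.95 for Mc1r. Neither effect differed between 12 and 0 h by limma's test (adjusted p = 0.458 and 0.209). For 3 of the 17 the effect at 12 h was below that at 0 h, beside 0.848% of all genes.

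Of 26 genes of pigment synthesis and the melanosome 16 fell and 1, the copper pump Atp7a (0.17), rose (median -0.33). Over all genes 7.77% fell and 6.95% rose. Rab27a, which tethers melanosomes to actin with Mlph, read 9.21, 9.24 and 9.21 with doxycycline and tunicamycin, against 10.38, 10.23 and 10.35 with tunicamycin alone (-1.10 ± 0.09). Mlph itself fell by 0.92. Pmel, the fibril protein of the melanosome, read 11.98, 11.99 and 12.02 against 12.84, 12.76 and 12.78 (-0.80 ± 0.05, adjusted p = 4.84e-09). At 0 h 15 of the 26 were lower, beside 5.82% of all genes. The fall was larger at 12 h for Rab27a, Mlph and Pmel by the test of the difference between effects.

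MITF binds the M-box, whose core TCATGTG was searched on both strands. It was in 6 of the 20 pigment genes with a window (30.0%), in 2 of 11 melanocyte factors and receptors, and in 3.39% of all genes. Matches are shown in capitals for Mc1r, the largest fall of its list, for Tspan10, 1 of the 15 largest falls and not on these lists, and for Tyr and Tyrp1, which were added as the classical pigment enzymes after their values were seen.
Mc1r: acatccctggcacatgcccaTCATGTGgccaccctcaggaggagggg
Tspan10: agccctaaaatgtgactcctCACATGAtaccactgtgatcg
Tyr: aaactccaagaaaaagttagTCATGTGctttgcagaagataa
Tyrp1: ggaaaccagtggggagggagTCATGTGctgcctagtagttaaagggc
They come from RefSeq GRCm38.p6 at chr8:123407010-123407056 (plus), chr11:120442590-120442630 (plus), chr7:87493513-87493554 (minus) and chr4:80834146-80834192 (plus). Tyr, tyrosinase, fell by 0.44, while Tyrp1 read 13.64, 13.55 and 13.64 with doxycycline and tunicamycin and 13.79, 13.70 and 13.70 with tunicamycin alone, a difference of -0.12 that did not pass the test (adjusted p = 0.0712). The letters were present in genes that fell and in 1 that did not pass.

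Many genes of the matrix and of the actin cytoskeleton were higher with doxycycline, beside 6.95% of all genes rising and 7.77% falling. Of 38 matrix genes 15 rose and 2 fell (median 0.11). Beside Ogn, Fstl1 and Thbs1, periostin (Postn) read 9.84, 9.71 and 9.82 with doxycycline and tunicamycin, against 8.91, 9.29 and 8.99 with tunicamycin alone (0.73 ± 0.08). Of 10 fibroblast markers 7 were above 6.07 with doxycycline and 6 without it, with list means of 6.53 to 6.58 against 6.44 to 6.58; Dcn, Lum and Fap were below it in both groups, Postn and Col1a1 were higher and Col1a2 was lower (-0.49), and Col1a1 lost its call on leaving out any 1 of the experiments. Their part in the matrix result was not tested.

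Integrin genes changed in both directions, 8 of 19 rising and 4 falling, beside 6.95% of all genes rising and 7.77% falling. The falling members numbered 2 without experiment 1. Itga1, a collagen receptor chain, rose by 0.95 and the laminin receptor chain Itga7 by 0.80. Itga4 read 9.50, 9.77 and 9.62 with doxycycline and tunicamycin, against 10.44, 10.65 and 10.78 with tunicamycin alone (-0.99 ± 0.08, adjusted p = 6.85e-08). Of 28 targets of SRF and YAP, the factors that respond to actin and tension, 19 rose and 0 fell (median 0.34). At 0 h 16 were already higher and 1 lower, beside 4.89% of all genes higher and 5.82% lower. Vinculin (Vcl) read 11.47, 11.73 and 11.57 against 10.63, 10.87 and 10.77 (0.84 ± 0.06), the receptor kinase Axl rose by 0.81 and the matricellular protein Ccn2 by 0.79.

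**Figure D5:**
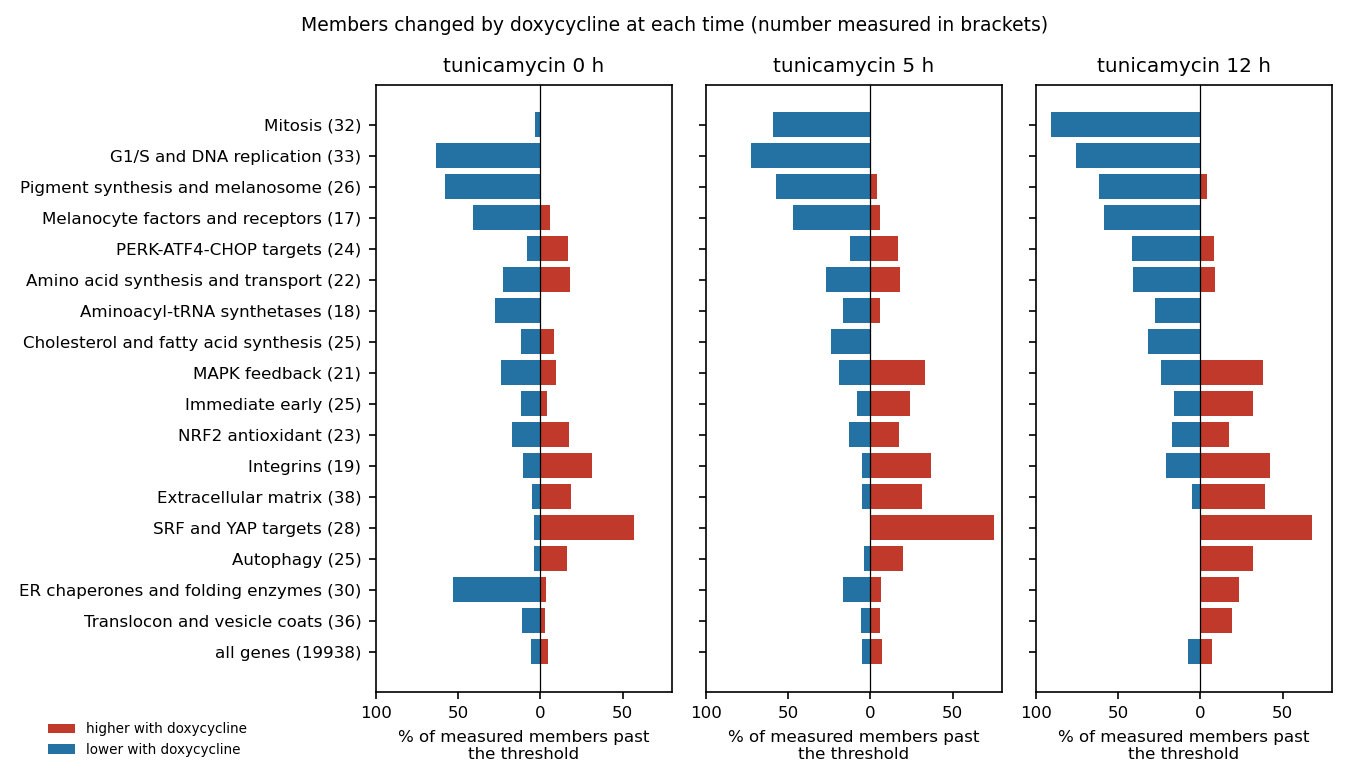
Share of the measured members of 17 gene lists, and of all genes, that were higher (red, right) or lower (blue, left) with doxycycline at 0, 5 and 12 h of tunicamycin (x axis, percent past the threshold). The mitosis share lower with doxycycline is 3.13% at 0 h and 90.6% at 12 h, and the ER chaperone share lower with doxycycline is 53.3% at 0 h and 0% at 12 h.

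Signalling genes were mixed, beside 6.95% of all genes rising and 7.77% falling. In the MAPK feedback list 8 of 21 rose and 5 fell, with 3 falling without experiment 3: the ERK-regulated factors Etv5 (1.02) and Etv1 (0.72) and the antagonist Spry2 (0.62) rose, while the phosphatase Dusp4 read 8.00, 8.18 and 8.16 with doxycycline and tunicamycin, against 9.15, 9.17 and 9.02 with tunicamycin alone (-0.997 ± 0.08). Of 25 immediate early genes 8 rose and 4 fell, and Myc, which promotes growth, was among the falls with 10.65, 10.75 and 10.62 against 11.71, 11.81 and 11.64 (-1.04 ± 0.06, adjusted p = 1.78e-09). The nuclear receptor Nr4a3 fell by 1.07, and the messenger-destabilising Zfp36 (0.81) and the antiproliferative Btg2 (0.76) rose. The rising immediate early genes numbered 4, 5 and 5 without experiments 1, 2 and 3. Of 22 nuclear hormone receptors 7 rose and 0 fell; behind Vdr the differences were 0.46 for Nr2f1, 0.39 for Nr1d1 and 0.37 for Thra, and 3 rose without experiment 1 and 4 without experiment 3. The Notch ligand Jag1 (0.93) and the Notch target Hes1 (0.67) were the largest of 4 rises among 28 Wnt and Notch genes, where Fzd1 (0.19) lost its call with the experiment as a block and 2 rose without experiment 1.

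Cytokine, interferon and growth factor lists held calls in both directions, beside 6.95% rising and 7.77% falling over all genes. Of 31 NF-kB, cytokine and chemokine genes 4 rose and 3 fell, with Stat3, the factor downstream of LIF and interleukin 6, at 0.76 and the cytokines Lif at 0.45, Csf1 at 0.42 and Il18 at 0.40. Among 26 interferon-stimulated genes 4 rose and 2 fell, with Ddx58 (0.71) and Ifih1 (0.47), both sensors of viral RNA, and the restriction factor Bst2 (0.35) rising and the chemokine Cxcl10 falling by 0.59. In the TGF-beta and BMP list 4 of 22 rose and 2 fell, with Tgfb3 at 0.52, Bambi at 0.24, Id2 at -0.50 and Smad6 at -0.24; 1 rose without experiment 2 and 1 without experiment 3. Leaving out experiment 1 left 2 rises in the NF-kB list, and leaving out experiment 3 left 2 in the interferon list and 0 falls in the NF-kB list.

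Cell death genes were read beside the 6.95% of all genes that rose and the 7.77% that fell. Of 16 BCL2 family genes 1 passed the test, the survival gene Bcl2l1 (-0.23, adjusted p = 0.0168), and that call was lost without experiment 1 or 3, with the compared groups alone and without any 1 of 3 single arrays. Among 25 caspases and death receptors 2 rose and 4 fell. Casp4 read 7.95, 8.11 and 8.33 with doxycycline and tunicamycin, against 9.21, 9.07 and 9.28 with tunicamycin alone (-1.06 ± 0.10, 2.08-fold lower, adjusted p = 5.01e-07). The TWEAK receptor Tnfrsf12a rose by 0.45, and the adaptor Fadd (-0.28) and Casp2 (-0.25) fell. Falling members numbered 1 without experiment 1, 3 without experiment 2 and 2 without experiment 3.

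Stress, organelle and metabolic lists completed the comparison, beside 6.95% of all genes rising and 7.77% falling. NRF2 antioxidant genes split, 4 of 23 rising and 4 falling, with Cbr2 and Akr1b8 (0.48) up and Hmox1 and Osgin1 (-0.42) down; 2 rose without experiment 1 and 1 without experiment 3. Cytosolic heat shock genes rose in 2 of 18, Hspb1 (0.74) and Dnajb4 (0.65), and fell in 0. Autophagy genes rose in 8 of 25 and fell in 0, by small amounts, with the phosphoinositide-binding Wipi1 at 0.31, Map1lc3a at 0.28, Atg12 at 0.21 and Atg13 at 0.20; the count was 3, 5 and 1 without experiments 1, 2 and 3, and Atg12 lost its call with the experiment as a block. Lysosome genes rose in 5 of 29 and fell in 1, the protease Ctsh (0.71), Npc2 (0.45) and Gla (0.36) rising and the channel Mcoln1 falling by 0.28. Cholesterol and fatty acid genes fell in 8 of 25 and rose in 0, among them Cyp51 (-0.50), Elovl6 (-0.41), Insig1 (-0.34) and Msmo1 (-0.31), with 5 falling without experiment 1 and 5 without experiment 3. Rising lysosome genes numbered 3 without experiment 1 and 3 without experiment 3.

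In the zinc list 3 of 14 rose and 3 fell, the metallothioneins Mt2 (-0.38) and Mt1 (-0.36) and the importer Slc39a10 (-0.37) falling and the exporter Slc30a4 rising by 0.38. In the iron list 1 of 12 rose and 3 fell, with the ferritin receptor for autophagy Ncoa4 at 0.28, the transferrin receptor Tfrc at -0.41, Slc25a37 at -0.26 and Steap3 at -0.25. Over all genes 6.95% rose and 7.77% fell, near the hypoxia list's 6.90% falling and the p53 list's 9.09% rising. Hypoxia and glycolysis genes rose in 4 of 29 and fell in 2, p53 targets rose in 2 of 22 and fell in 3. FOXO and growth restraint genes rose in 3 of 18 and fell in 2. Among the genes of these 3 lists the glycolytic regulator Pfkfb3 was at -0.69, Ndrg1 at -0.46, Aldoc at 0.42, P4ha1 at 0.37, Gtse1 at -0.40, Trp53inp1 at -0.23, Gadd45a at -0.30, Klf12 at 0.50, the ubiquitin ligase Fbxo32 at -0.47, Ccng2 at 0.41 and Txnip at -0.20. Leaving out an experiment changed several of these small counts, to 1 rise without experiment 1 in the hypoxia, p53 and FOXO lists and to 1 rise without experiment 3 in the zinc list.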

How the data were processed

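The authors deposited log2 intensities of 35557 probe sets on 18 one-colour arrays, which were summarised with RMA and handled in Partek, per the submitters' processing notes; versions, settings and a genome build are not given in the sources used here. RMA compresses the differences of dim probe sets. The values were used as deposited. Probe sets with 1 symbol (21789; 1621 had several and 12147 none) gave 19938 genes through the brightest probe set. Groups of 3 arrays were taken from the labels. limma 3.58.1 (R 4.3.3) was fitted to 6 group means over 18 arrays (12 residual degrees of freedom, 5.99 from the prior); p-values were adjusted by Benjamini and Hochberg's method within each comparison. The main test had no block. The replicate numbers were taken to pair the arrays, because the design text says that each of 3 independent experiments held all 6 conditions. As a check, the deviations of the 45 same-number pairs of arrays correlated with a median r of 0.04 (-0.50 to 0.50). Pairs with different numbers had a median r of -0.01. The 12 h pairs of experiments 1, 2 and 3 had r of 0.21, -0.02 and -0.10. The pairing therefore rests on the design text and not on these correlations. Tested on simulated data for the 12 h comparison (19938 genes, 200 changed), the fit recovered 63% of changes of 0.3 and 98% of 0.6, with 12 false calls. The simulated noise was independent between arrays and fewer genes changed than the 2936 called in the data. These rates therefore check the fit and do not describe the real comparison.

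The members, the 38 gene lists (831 measured genes) and the motifs were chosen with earlier results of these data known. Named genes were the 15 largest rises and 15 largest falls with 1 sign in 3 experiments, leaving out predicted, clone-named, small RNA, receptor and histone genes; the 6 and 6 largest differences between effects at 12 and 0 h and 4 and 4 at 12 and 5 h; up to 4 members of each list (or that with the smallest p); and Cebpb, Ddit3, Atf4, Atf3, Trib3, Hspa5, Dnajb9, Xbp1 and Mitf. A few others were named after their values were seen: Atf5, Vegfa, Asns, Atp7a, Tyr, Tyrp1, Ccnb2, Cdc20 and the other markers. Alternatives were a fit of the compared groups alone, the experiment as a block, equal array medians, repeated quantile normalization, leaving out the dimmest genes, an intensity trend in the variance fitted robustly, weights per array, averaging the probe sets of a gene, and leaving out each experiment or each array at 12 h. Single arrays at 0 and 5 h were not left out. The bounds against the receptor genes' 95th percentile were added after the data were seen.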

Additional observations from a re-analysis of the deposited data

Results flagged for a closer look

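The difference between the doxycycline effects at 12 and 0 h passed limma's test for 367 genes, and that between 12 and 5 h for 140. The values below are those differences on the log2 scale, positive where the effect at 12 h was the larger in the upward direction. They were set apart by the test of the difference itself, at an adjusted p under 0.05. Of the 82 differences named here 32 kept their call in all alternatives run, and 50 lost it in at least 1: 46 without experiment 1, 13 without experiment 2, 48 without experiment 3, 9 with the compared groups alone and 6 with equal array medians. Those lost with the compared groups alone were Lifr, Cdc25b and Vcl against 0 h and Vdr, Itga7, Pmel, Etv5, Gadd45a and Nr1d1 against 5 h; those lost with equal medians were Selenos, Cdc25b, Vcl and Rab27a against 0 h and Pmel and Nr1d1 against 5 h. Sizes for Ogn, Dthd1, Nat8f5 and Lcn2 rest on levels below the receptor genes' 95th percentile.

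Among adhesion, matrix and surface genes the difference between 12 and 0 h was 3.23 for Ogn, 2.19 for Itga5, 0.74 for Fstl1, 0.68 for Jam2, 1.11 for Ptprd, 0.43 for Lifr, 0.71 for Npr3, 0.58 for Thbs1, 0.62 for Postn, 0.71 for Itga7, 0.37 for Vcl and 0.70 for Jag1. Between 12 and 5 h it was 2.83 for Ogn, 1.47 for Itga5, 0.95 for Ptprd and 0.61 for Itga7. Vdr differed by 1.25 and 0.65, Gata3 by 1.20 and 0.94, Etv5 by 0.90 and 0.59, Gsta3 by 0.91 and 0.74 and Suox by 0.83 and 0.96, in each case against 0 h and then against 5 h. Other positive differences against 0 h were 0.53 for Cbr2, 0.72 for Rasl11a, 0.80 for Spry2, 0.48 for Zfp36, 0.54 for Btg2, 0.39 for Dnajb4 and 0.34 for Npc2, and Nr1d1 differed by 0.41 against 5 h.

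In the ER the differences against 0 h were 0.41 for Fkbp14, 0.50 for Dnajb9, 0.45 for Selenos, 0.42 for Herpud1 and 0.46 for Alg5. Herpud1 was lower with doxycycline at both times, so its positive value is a smaller fall.

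Negative differences against 0 h and then 5 h were -1.94 and -1.80 for Dthd1, -1.53 and -1.43 for Hmox1, -1.41 and -1.33 for Nat8f5, -1.26 and -1.10 for Casp4, -1.19 and -0.93 for Nat8, -1.10 and -1.12 for Lcn2, -1.02 and -1.06 for Ptgir, -0.93 and -0.80 for Pla2g2e, -1.0 and -0.60 for Aldh1l2, -0.60 and -0.94 for Ano3 and -0.77 and -0.97 for Cdsn. Cebpb differed by -0.62 and -0.59, Mlph by -0.51 and -0.56 and Pmel by -0.48 and -0.35. Gadd45a differed by -0.65 against 5 h.

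Further negative differences against 0 h were -0.61 for Nupr1, -0.82 for Atf3, -0.45 for Chac1, -0.40 for Gpt2, -0.39 for Msmo1, -0.31 for Cdk2, -0.25 for Cdc25b, -0.31 for Plk1, -0.40 for Mcoln1, -0.48 for Erbb3, -0.49 for Rab27a, -0.41 for Fbxo32, -0.60 for Slc24a4 and -0.46 for Insc.

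Outside the genes with a single symbol, 13768 probe sets that carry no symbol or more than 1 were tested in the same way, and at 12 h 70 were higher and 109 lower with doxycycline.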

How the results depend on the processing

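The 2936 genes that differed at 12 h became 2040 with a fit of the compared groups alone, 3013 with the experiment as a block, 2737 with equal array medians and 3244 with a variance trend and robust estimation, and 1454 to 2900 on leaving out an experiment or an array. The block changed the call of Atg12 and Fzd1 and of no other named gene. The 367 effects that differed between 12 and 0 h became 401 with the block, 567 with the variance trend and 777 with array weights. They became 39 to 472 on leaving out an experiment or an array at 12 h. The 140 that differed between 12 and 5 h became 150 with the block, 66 with the compared groups alone, 219 with the variance trend and 234 with array weights. They became 28 to 199 on leaving out an experiment or an array at 12 h. The cause of these shifts was not tested. Of 163 named genes 124 kept their side of the threshold in every alternative run for them (17, of which 4 genes lacked the 1 that leaves out dim genes). The other 39 lost their call in at least 1. Direction changed for 0 genes where the main or the alternative fit passed the threshold. Changes of sign where neither passed were not counted. With the compared groups alone Arfgap3, Atg12, Atg13, Bcl2l1, Copb1, Erlec1, Erp44, Fzd1, Gadd45a, Spcs1 and Txnip lost their calls. Signal over background limits dim genes such as Ogn and Dthd1, whose lower group lay within the receptor genes' range.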
